A study of Mus musculus with 44 samples.

Results

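The genes described here move acid and base across kidney cells: the subunits of the vacuolar proton pump (V-ATPase), carbonic anhydrases, bicarbonate and chloride exchangers, ammonia channels, gastric-type proton-potassium pumps and the transcription factor Foxi1. They were chosen by name. There were 17 listed genes, and 27 more whose symbols begin with Atp6v0, Atp6v1 or Atp6ap, which gives 44 of the 24733 genes with a value above 0. Polyadenylated RNA was sequenced from kidney of mice of strain 129SV, aged 8 to 12 weeks after birth, under night-restricted feeding. The groups were wild type (WT) and KO, the Bmal -/- genotype that lacks the core clock activator BMAL1, at Zeitgeber times ZT0, ZT4, ZT8, ZT12, ZT16 and ZT20, where ZT0 is lights on. Strain, tissue, age range and feeding were shared by all 12 groups. Each group had 2 libraries, lettered A and B, so that each genotype had 12. The labels used here do not say that the letters stand for separate animals, so p-values measure the spread between these libraries. Whole kidney RNA was measured, so more cells of a type and more RNA per cell cannot be told apart.

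The kidney reclaims filtered bicarbonate mainly in the proximal tubule and adjusts the final acidity of urine in the connecting tubule and collecting duct. There, type A intercalated cells pump protons into urine with an apical V-ATPase and return bicarbonate to blood, while type B cells secrete bicarbonate. The V-ATPase has a membrane-bound V0 sector that conducts protons and a cytosolic V1 sector that hydrolyses ATP. Every cell uses it to acidify lysosomes and endosomes. Several of its subunits exist as a widely expressed form and as a paralog enriched in intercalated cells, and these pairs allow the specialised pump to be compared with the housekeeping pump inside a single library.

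All values are TPM, a relative measure of transcript abundance that is scaled for transcript length and has the same total in every library. A difference between genotypes is the log2 change, KO minus WT, of TPM + 0.1 with time as a term, and a gene was called when its limma p-value, adjusted by the Benjamini-Hochberg method over the 12874 genes averaging 1 TPM or more, was under 0.05. The proximal tubule transcript Kap alone took 36498 ± 3070 TPM in WT and 21880 ± 7274 TPM in KO (SD, n = 12), and the log2 change of the median gene, of all those tested, was 0.15. A rescaling of each library to its median ratio across genes brought this median to -0.00, and its results are given beside those on TPM as deposited. The library labelled KO ZT4 replicate A stood apart. Its Nr1d1, a direct BMAL1 target, was at 23.8 TPM against 1.23 to 3.46 TPM in the 11 other KO libraries and 22.03 and 33.0 TPM in the WT libraries of ZT4. Cry1, a clock repressor, was at 1.03 TPM there, against 11.5 to 17.8 TPM in the other KO libraries and 1.20 and 0.845 TPM in WT at ZT4. That library was kept under its label, and results that rest on it are also given without it. Arntl, which encodes BMAL1, was at 4.19 to 6.20 TPM in the 11 other KO libraries and 0.295 to 12.9 TPM in WT, and because the deleted part is not given in the sources used here, these transcripts do not check the label.

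To show what lies ahead of the specialised and the housekeeping forms, 3 upstream windows are printed, each the 250 bases before a RefSeq start site on GRCm38.p6. Such windows were found for 30 of the 44 members, 35 windows in all. Atp6v1b1 and Atp6v0a4 encode intercalated-cell subunits of the V1 and V0 sectors (chr6:83742767-83743016, plus strand, and chr6:38124587-38124836, minus strand), and Atp6v0b encodes a widely expressed proteolipid of the V0 sector (chr4:117887330-117887579, minus strand). Capitals mark a forkhead core or an E-box.
Atp6v1b1: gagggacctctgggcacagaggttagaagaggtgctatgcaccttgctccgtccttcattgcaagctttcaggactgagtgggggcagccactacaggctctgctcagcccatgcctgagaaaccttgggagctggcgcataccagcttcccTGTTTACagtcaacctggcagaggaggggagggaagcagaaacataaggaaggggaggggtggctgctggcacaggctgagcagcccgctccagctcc
Atp6v0a4: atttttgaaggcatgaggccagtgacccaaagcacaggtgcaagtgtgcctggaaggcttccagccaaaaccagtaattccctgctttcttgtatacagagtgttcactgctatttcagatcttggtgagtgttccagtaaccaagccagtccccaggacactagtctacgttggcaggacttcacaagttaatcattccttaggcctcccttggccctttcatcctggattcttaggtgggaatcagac
Atp6v0b: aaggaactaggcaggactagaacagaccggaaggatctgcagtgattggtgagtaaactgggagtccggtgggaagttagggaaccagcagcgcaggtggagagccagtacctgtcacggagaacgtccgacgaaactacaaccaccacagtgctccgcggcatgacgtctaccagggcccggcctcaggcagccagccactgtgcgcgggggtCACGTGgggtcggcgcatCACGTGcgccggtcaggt
The forkhead core (GTAAACA, or TGTTTAC on the other strand) is the type of site that FOXI1 binds. It lay 98 bases before the start of Atp6v1b1 and in no other of the 35 windows used. Of 32851 mouse windows of the same length 3.17% held it. The palindromic E-box CACGTG, the type of site that BMAL1 and CLOCK bind, occurred in 2 members, both widely expressed: Atp6v0b, 36 and 18 bases before its start, and Atp6v1a, 131 bases before its start. Among all windows 6.02% held that E-box. None of the windows of 4 intercalated-cell subunits or 6 intercalated-cell transport members held CACGTG, and none of the 35 held the D-box TTATGTAA or its reverse complement TTACATAA, which 0.819% of all windows held. These are letter matches in short windows and were not tested as binding sites.

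Of the 44 members, 39 passed the filter on low values. Among them 30 were higher in KO, 1 was lower (Car4) and 8 did not pass the test. The background was high: 50.9% of all genes tested were called higher and 10.0% lower on the same values, 60.9% in all. With median-of-ratios scaling 19 members were higher and 8 lower, against a background of 21.5% higher and 22.6% lower, and the 19 were all among the 30. The share of higher genes among all those called moved from 83.6% to 48.7% with this scaling. The members' median log2 change was 0.30 on TPM as deposited and 0.15 after scaling, beside 0.15 and -0.00 for all genes tested. Changes of at least 0.3 were found in 19 called members, all higher, a class that held 21.3% of all genes tested on the higher side and 5.98% on the lower side. With the library labelled KO ZT4 replicate A set aside, 30 members were higher and 2 lower, the second being Atp6v0a2, beside 52.6% and 10.3% of all genes.

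**Figure D1:**
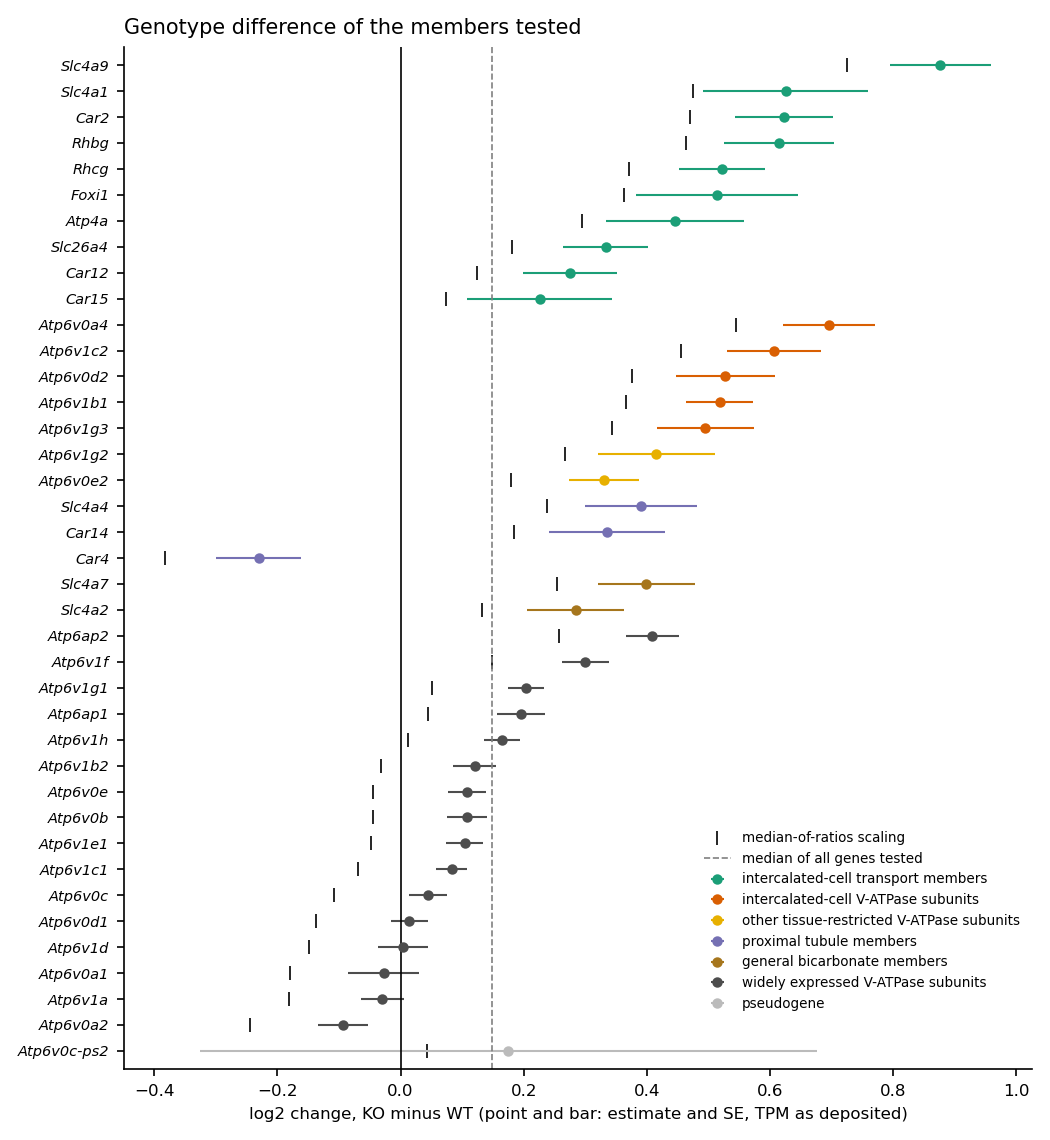
Log2 change, KO minus WT, for the 39 members tested, with the SE as a bar, on TPM as deposited; black ticks give the change with median-of-ratios scaling and the dashed line the median of all genes tested, 0.15. The 5 intercalated-cell subunits lie between 0.49 and 0.70, and the 16 widely expressed subunits between -0.09 and 0.41.

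The subunits enriched in intercalated cells were all higher in KO. All 5 passed the test, with log2 changes of 0.49 to 0.70 and a median of 0.53, and all 5 passed with both other scalings, where their medians were 0.38 (median-of-ratios) and 0.44 (rescaled without the 20 most abundant genes). Of all genes tested 50.9% were higher on TPM as deposited and 21.5% with median-of-ratios scaling. Each of the 5 subunits was higher in KO at 6 of 6 times. Atp6v0a4 (ENSMUSG00000038600), the a4 subunit of the membrane sector whose loss causes distal renal tubular acidosis in people, ranged over the 12 WT libraries from 55.8 through a median of 64.5 to 73.2 TPM, and in KO from 69.4 through 104 to 143 TPM. The gene lies on the minus strand at chr6:38048483-38124586 (GRCm38). Its lowest KO value came from the library labelled KO ZT4 replicate A, and without it no KO library overlapped WT. With that library set aside, KO lay above every WT library for 8.34% of all genes tested. For Atp6v0a4 the test used all 24 libraries. The log2 change was 0.70 (SE 0.07, 1.62-fold, adjusted p 6.18e-07). Atp6v1b1, the B1 subunit that takes part in ATP hydrolysis and is also a renal tubular acidosis gene, was at 35.0, 39.6 and 43.7 TPM in WT (lowest, median, highest) and 42.2, 55.6 and 68.7 TPM in KO, 0.52 higher on the log2 scale (SE 0.05, adjusted p 5.11e-07).

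The other members of this specialised pump were less abundant. Atp6v0d2, the d2 subunit that links the sectors, was at 9.43, 12.01 and 13.6 TPM in WT and 12.5, 17.1 and 21.7 TPM in KO (log2 change 0.53, adjusted p 2.2e-05). Atp6v1g3, a subunit of the peripheral stalk, was at 11.7, 15.6 and 18.6 TPM in WT and 15.9, 21.3 and 26.5 TPM in KO (log2 change 0.49, adjusted p 3.15e-05). For Atp6v0d2, Atp6v1g3 and Atp6v1b1 the 11 KO libraries other than that labelled KO ZT4 replicate A lay above every WT library. The same held for 8.34% of all genes tested. Atp6v1c2, which encodes the C2 subunit of V1, was at 10.97, 13.4 and 18.8 TPM in WT and 15.9, 20.7 and 27.2 TPM in KO, and its groups overlapped with or without that library (log2 change 0.61, adjusted p 2.92e-06). The annotation gives Atp6v1c2 exons that overlap Pdia6 on the opposite strand (mean 69.3 TPM), and Atp6v0a4 exons that overlap Tmem213 on the opposite strand (mean 120.1 TPM) and D630045J12Rik on its own strand (mean 11.9 TPM). Whether the libraries keep strand is not given in the sources used here, so some reads of these genes may not be separable. Over all libraries 52.4% of the Atp6v1c2 TPM was assigned to a transcript annotated as subject to nonsense-mediated decay. Atp6v1b1 had 1 transcript among the deposited values.

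**Figure D2:**
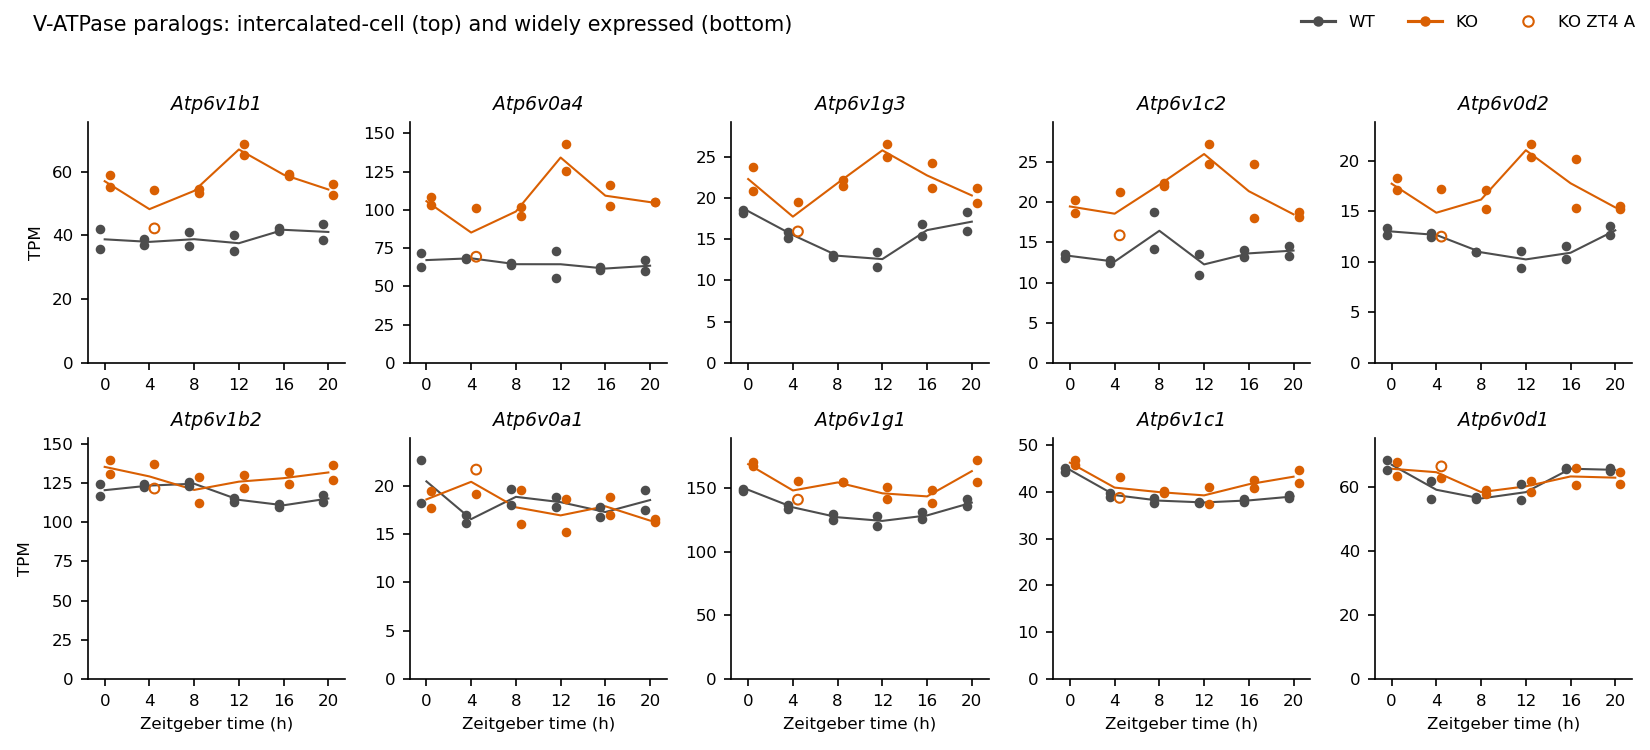
TPM of the 5 intercalated-cell subunits (top) and of their widely expressed paralogs (bottom) against Zeitgeber time in hours; points are libraries, lines join the means of the 2 libraries per group, and the open circle is the library labelled KO ZT4 replicate A. Atp6v0a4 runs from 55.8 to 73.2 TPM in WT and from 69.4 to 143 TPM in KO, while Atp6v0a1 spans 16.1 to 22.7 TPM in WT and 15.2 to 21.7 TPM in KO.

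The balance of each pair moved towards the intercalated-cell form in KO. Because both genes come from the same library, this ratio does not depend on library scaling, apart from the pseudocount of 0.1. The B1 form made up 25.0% ± 1.73 of the summed B1 and B2 TPM in WT and 30.6% ± 2.71 in KO (SD, n = 12). Within the a subunits, a4 made up 78.0% ± 1.62 of a4 plus a1 in WT and 85.2% ± 3.34 in KO. For this subunit a4 was thus the more abundant of the pair in whole kidney, where the cells it came from were not resolved. The d2 form rose from 16.03% ± 1.32 to 21.5% ± 3.06 of d2 plus d1, the C2 form from 25.7% ± 2.94 to 33.3% ± 4.23 of C2 plus C1, and the G3 form from 10.3% ± 0.942 to 12.4% ± 1.67 of G3 plus G1.

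As log2 ratios, the KO minus WT difference was 0.72 for Atp6v0a4 over Atp6v0a1 (1.65-fold), 0.52 for Atp6v1c2 over Atp6v1c1 (1.44-fold), 0.51 for Atp6v0d2 over Atp6v0d1 (1.43-fold), 0.40 for Atp6v1b1 over Atp6v1b2 (1.32-fold) and 0.29 for Atp6v1g3 over Atp6v1g1 (1.22-fold). An exact two-sided permutation test within times, over 46656 arrangements and adjusted over the 5 pairs, gave adjusted p-values of 0.000268, 0.000107, 0.000268, 0.000107 and 0.0012 in that order. The smallest unadjusted p the design can give is 4.29e-05, which the B and C pairs reached. Mean ratios were higher in KO at 6 of 6 times for every pair but Atp6v0a4 over Atp6v0a1, where this held at 5 of 6. In 11 of 12 KO libraries the B, a and d ratios lay above the highest WT library, in 7 of 12 the G ratio did, and in 5 of 12 the C ratio did. The library labelled KO ZT4 replicate A lay within the WT range for all 5 ratios, and leaving out any of the 24 libraries left each difference within 0.28 to 0.78. The pairs share their intercalated-cell genes with the tests above and are not independent of them.

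**Figure D3:**
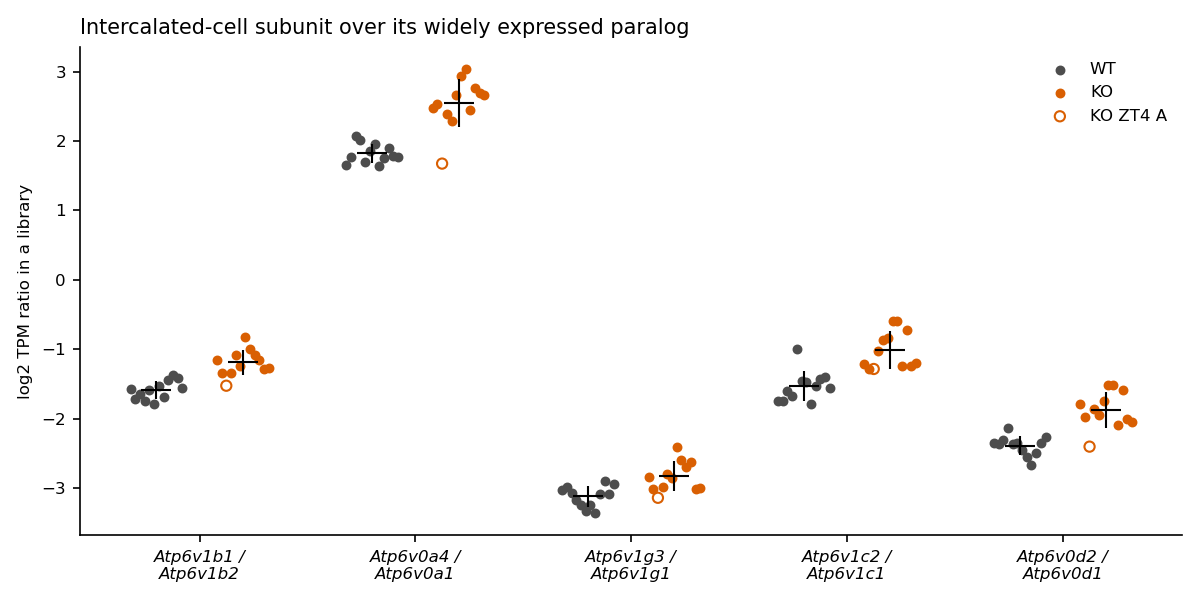
Log2 TPM ratio of each intercalated-cell subunit over its widely expressed paralog, 1 point per library, with the mean and SD of each genotype (n = 12); the open circle is the library labelled KO ZT4 replicate A. For Atp6v1b1 over Atp6v1b2 the WT libraries run from -1.78 to -1.37 and the KO libraries from -1.52 to -0.82.

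The widely expressed subunits, which build the pump of lysosomes and endosomes in every cell, had log2 changes of -0.09 to 0.41, and 8 of the 16 reversed their sign with median-of-ratios scaling. All 16 were tested. On TPM as deposited 10 were higher and none lower, beside 50.9% and 10.0% of all genes tested. The median log2 change was 0.11 against 0.15 for all genes. With median-of-ratios scaling 2 were higher and 7 lower with a median of -0.05, beside 21.5% and 22.6% of all genes. After rescaling without the 20 most abundant genes 5 were higher and 3 lower, and the shares of all genes in that fit are not given here. Higher with both TPM as deposited and median-of-ratios scaling were Atp6ap2 and Atp6v1f. Atp6ap2, the accessory protein also known as the prorenin receptor, was at 40.1, 43.4 and 47.8 TPM in WT and 44.6, 59.9 and 63.1 TPM in KO (log2 change 0.41, adjusted p 4.88e-07; 0.26 after scaling). Atp6v1f, the F subunit of the central rotor, was at 135, 154 and 164 TPM in WT and 161, 187 and 211 TPM in KO (log2 change 0.30, adjusted p 3.43e-06; 0.15 after scaling). For both, KO exceeded every WT library once the library labelled KO ZT4 replicate A was set aside, as for 8.34% of all genes tested.

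The catalytic A subunit Atp6v1a, which has no intercalated-cell paralog, was at 113, 123 and 135 TPM in WT and 103, 121 and 129 TPM in KO, and the log2 change was -0.03 (SE 0.03, adjusted p 0.47; -0.18 after scaling, adjusted p 0.000338). Its groups overlapped almost entirely. The d1 subunit Atp6v0d1 (log2 change 0.01), the D subunit Atp6v1d (0.00) of the rotor, and the a subunits Atp6v0a1 (-0.03) and Atp6v0a2 (-0.09) also failed the test on TPM as deposited, as did the proteolipid Atp6v0c (0.04). Atp6v0c was the most abundant of the pump members, at 349 ± 17.8 TPM in WT and 360 ± 19.8 TPM in KO (SD, n = 12). After median-of-ratios scaling all 6 were called lower in KO, with log2 changes of -0.11 to -0.24, as was Atp6v1c1, which reversed from 0.08 to -0.07. Atp6v1b2 (0.12), Atp6v0e (0.11), Atp6v0b (0.11) and Atp6v1e1 (0.10) were called higher on TPM as deposited and fell to between -0.05 and -0.03 after scaling, with no call. Atp6v1g1 (0.20), Atp6v1h (0.16), the regulatory H subunit, and the accessory protein Atp6ap1 (0.20) kept their sign but lost the call. The a3 subunit is encoded by Tcirg1, outside the rule by its symbol, and had a log2 change of -0.07 (adjusted p 0.381; -0.22 after scaling, adjusted p 0.00784).

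Other tissue-restricted forms followed the intercalated-cell forms where they could be measured. Atp6v0e2, a small membrane-sector subunit, was at 16.3, 19.2 and 21.03 TPM in WT and 21.2, 24.03 and 29.9 TPM in KO (log2 change 0.33, adjusted p 6.53e-05), and was the 1 member whose 12 KO libraries all lay above the 12 WT libraries, as did 1.42% of all genes tested. Atp6v1g2, a G subunit best known from neurons, was at 2.16, 3.25 and 3.89 TPM in WT and 3.62, 4.07 and 5.44 TPM in KO (log2 change 0.42, adjusted p 0.000988). Both were also called after median-of-ratios scaling. Atp6v1g2 exons overlap Nfkbil1 on the opposite strand (mean 5.47 TPM), so some of its reads may not be separable. With the library labelled KO ZT4 replicate A set aside, 10 members had groups that did not overlap, beside 8.34% of all genes: Atp6v0e2, Atp6v0a4, Atp6v0d2, Atp6v1b1, Atp6v1g3, Atp6v1f, Atp6ap2, Rhbg, Rhcg and Slc4a9. The testis form Atp6v1e2 and the accessory-like Atp6ap1l were at or under 0.05 TPM in every library and were not tested. Also caught by the prefix were Atp6v1fnb, a neighbour of Atp6v1f that is not a subunit and stayed under 0.17 TPM, and the pseudogene Atp6v0c-ps2, at 1.08 ± 0.767 and 1.15 ± 0.719 TPM (SD, n = 12), which did not pass the test and may share reads with Atp6v0c.

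The transport genes of intercalated cells were higher in KO as well. Of 12 such members, 10 were tested and 9 were higher on TPM as deposited, beside 50.9% of all genes tested. Their median log2 change was 0.52 against 0.15 for all genes. With either other scaling 8 were higher, Car12 losing its call, and the medians were 0.37 and 0.43. Of all genes 21.5% were higher with median-of-ratios scaling, and the share with the other rescaling is not given here. Slc4a9 (AE4), an anion exchanger of type B cells, had the largest change of all members. It was at 14.6, 17.9 and 20.8 TPM in WT and at 20.1, 32.7 and 41.9 TPM in KO, where the 20.1 came from the library labelled KO ZT4 replicate A, and the log2 change was 0.88 (SE 0.08, 1.84-fold, adjusted p 3.41e-07). Slc26a4 (pendrin), the apical chloride-bicarbonate exchanger of type B cells, was at 15.7, 19.2 and 22.01 TPM in WT and 19.9, 23.4 and 31.6 TPM in KO (log2 change 0.33, SE 0.07, adjusted p 0.000419). Its groups overlapped, and both libraries of KO at ZT12, 31.4 and 31.6 TPM, stood at the top.

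On the side of type A cells, Slc4a1 (AE1, band 3), the basolateral chloride-bicarbonate exchanger, was at 8.08, 12.7 and 22.3 TPM in WT and 13.7, 19.97 and 26.4 TPM in KO (log2 change 0.63, SE 0.13, adjusted p 0.000597). Car2, the cytosolic carbonic anhydrase that supplies protons and bicarbonate, was among the abundant members at 121, 162 and 225 TPM in WT and 204, 271 and 297 TPM in KO (log2 change 0.62, adjusted p 3.33e-06). Both proteins are also abundant in red blood cells, and the red-cell transcripts differed too: of 8 markers 5 were tested, Hba-a1 (0.34), Hba-a2 and Hbb-bs (0.44) were higher, Hbb-bt was lower (-0.34) and Alas2 did not pass (0.28, adjusted p 0.0947). Of all genes tested 50.9% were higher and 10.0% lower on TPM as deposited. With median-of-ratios scaling none of these red-cell markers was higher. Their summed level was 827 to 2090 TPM in WT and 1053 to 2550 TPM in KO, and the red-cell membrane genes Rhag and Epb42 had means of 0.0979 and 0.526 TPM in WT and 0.122 and 0.495 TPM in KO. The part of red-cell RNA in the Slc4a1 and Car2 results was not tested, and the kidney cells that these transcripts came from were not resolved. Of the Slc4a1 TPM, 72.4% was assigned to the coding transcript ENSMUST00000006749 and 27.6% to the short non-coding transcript ENSMUST00000149993.

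Ammonia carries much of the acid that leaves in urine, and both of its intercalated-cell and collecting duct channels were higher. Rhcg was at 36.5, 51.5 and 59.4 TPM in WT and 47.9, 72.3 and 95.3 TPM in KO (log2 change 0.52, SE 0.07, adjusted p 5.9e-06). Rhbg, on the basolateral side, was at 8.46, 13.8 and 17.6 TPM in WT and 14.5, 20.6 and 25.9 TPM in KO (log2 change 0.61, SE 0.09, adjusted p 1.23e-05). Rhbg exons overlap Gm38392 on the same strand (mean 5.76 TPM). Foxi1, the forkhead factor that intercalated cells need to form, was at 5.84, 7.95 and 8.60 TPM in WT and 7.34, 10.6 and 18.7 TPM in KO. Its KO libraries spread widely and overlapped WT, and the log2 change was 0.51 (SE 0.13, adjusted p 0.00254). Atp4a, the alpha subunit of the gastric-type proton-potassium pump, was at 10.7, 13.98 and 18.1 TPM in WT and 11.8, 18.6 and 28.3 TPM in KO (log2 change 0.45, adjusted p 0.00212).

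Car12, a membrane-bound carbonic anhydrase, was at 50.7, 62.5 and 81.1 TPM in WT and 58.5, 79.4 and 95.6 TPM in KO, with a log2 change of 0.28 (adjusted p 0.00433) that fell to 0.12 (adjusted p 0.175) after median-of-ratios scaling. Car15, another membrane-bound enzyme, spread from 51.9 to 125 TPM in KO and did not pass (log2 change 0.23, adjusted p 0.103), although without KO ZT20 replicate B it did (0.31, adjusted p 0.00853). The colonic-type proton-potassium pump Atp12a, at 0.103 ± 0.0757 TPM in WT and 0.283 ± 0.338 TPM in KO, and the basolateral exchanger Slc26a7, at 0.579 ± 0.22 and 0.668 ± 0.18 TPM (SD, n = 12), were too low to test. Of the Slc26a7 TPM, 86.1% was on its full-length transcript.

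**Figure D4:**
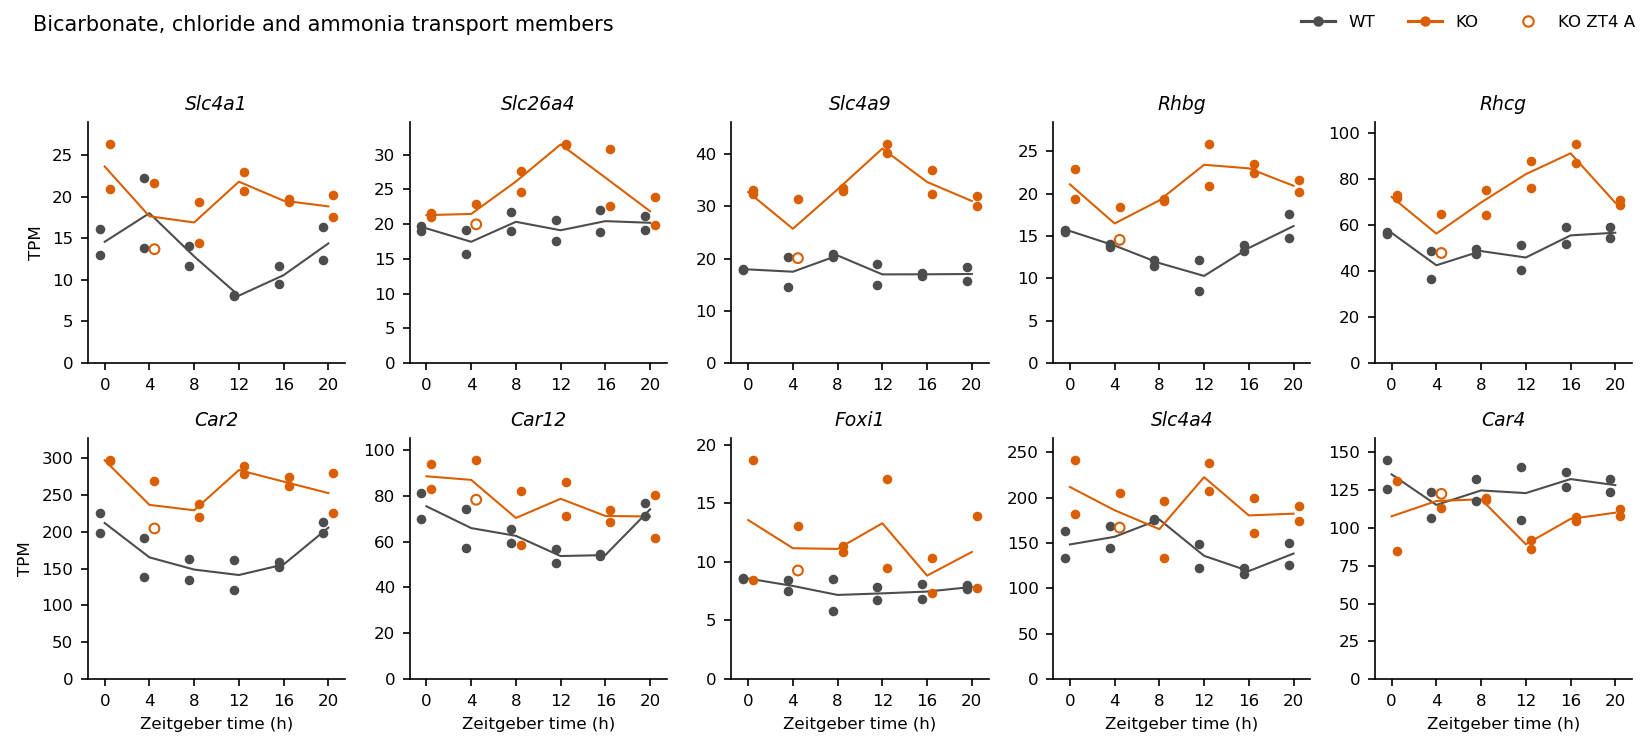
TPM of 10 bicarbonate, chloride and ammonia transport members, Foxi1 included, against Zeitgeber time in hours; points are libraries, lines join group means, and the open circle is the library labelled KO ZT4 replicate A. Slc4a9 is 14.6 to 20.8 TPM in WT and 20.1 to 41.9 TPM in KO, and Car4 is the panel in which KO is lower.

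In the proximal tubule, where most bicarbonate is reclaimed, members moved in both directions. Slc4a4 (NBCe1), the basolateral sodium-bicarbonate cotransporter, was at 116, 147 and 176 TPM in WT and 134, 194 and 241 TPM in KO (log2 change 0.39, SE 0.09, adjusted p 0.00105; 0.24 after scaling, adjusted p 0.0253). Most of its TPM, 75.5%, came from the longest transcript, ENSMUST00000148750, with 18.4% from ENSMUST00000134303 and 5.06% from ENSMUST00000113216. The longest had 110.6 ± 13.7 TPM in WT and 143.7 ± 18.6 TPM in KO (SD, n = 12), a difference that was not tested by itself. Car4, the luminal carbonic anhydrase that works with it, was at 106, 127 and 145 TPM in WT and 84.5, 110 and 131 TPM in KO. It was lower (log2 change -0.23, SE 0.07, adjusted p 0.00761), also after scaling (-0.38, adjusted p 0.000609). Car14, a second membrane-bound form there, was at 33.0, 46.4 and 76.5 TPM in WT and 40.9, 60.1 and 83.2 TPM in KO (log2 change 0.34, adjusted p 0.00474), and lost its call after scaling (0.18, adjusted p 0.13). Car14 exons overlap Aph1a on the opposite strand (mean 37.1 TPM).

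Bicarbonate carriers with a broad distribution were also measured. The electroneutral sodium-bicarbonate cotransporter Slc4a7 was low, at 1.66 ± 0.144 TPM in WT and 2.26 ± 0.47 TPM in KO (SD, n = 12), and higher in KO with a log2 change of 0.40 (adjusted p 0.000263; 0.25 after scaling, adjusted p 0.00343). The anion exchanger Slc4a2 (AE2) was at 17.5, 22.3 and 28.2 TPM in WT and 20.6, 27.3 and 33.0 TPM in KO (log2 change 0.28, adjusted p 0.00416; 0.13 after scaling, adjusted p 0.119). Its TPM was spread over 7 transcripts with at least 5% each, the largest, ENSMUST00000115049, with 41.8%, and its exons overlap Fastk (mean 75.5 TPM) on the opposite strand.

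Markers of several cell types moved with these members, so the differences are given beside them. Of all genes tested 50.9% were higher and 10.0% lower on TPM as deposited, with a median log2 change of 0.15. With median-of-ratios scaling these shares were 21.5% and 22.6%. Of 7 intercalated-cell markers outside the set, 5 were higher in KO on TPM as deposited and with median-of-ratios scaling, among them Insrr (0.56), Hepacam2 (0.50) and Oxgr1 (0.37), while Aqp6 (-0.01) and Dmrt2 (0.29, adjusted p 0.0523) did not pass. Their summed level was 46.9 to 69.1 TPM in WT and 48.6 to 79.6 TPM in KO, and their median log2 change was 0.40. With the library labelled KO ZT4 replicate A set aside, 6 of the 7 were higher with a median of 0.44, beside 52.6% of all genes. Principal cells, the other main cell type of the collecting duct, had 7 of 8 markers higher with a median of 0.62 and a summed level of 224 to 349 TPM in WT and 293 to 620 TPM in KO, with Avpr2 (0.95) and Scnn1b (0.87) at the upper end. All 3 distal convoluted tubule markers and all 3 podocyte markers were higher, with medians of 0.44 and 0.45. Of 8 proximal tubule markers 2 were higher and 3 lower, with a median of 0.02. The thick ascending limb had 2 of 3 higher and 1 lower, endothelium 1 of 3 higher, leukocytes 1 of 3 tested lower and fibroblasts 0 of 3 called. With median-of-ratios scaling 7 principal-cell, 3 podocyte and 2 distal convoluted tubule markers were higher, and 1 proximal tubule marker was higher and 4 lower. No marker in these lists was listed at 0 in all libraries. Trace levels would meet this too, so it is no check of the labelled tissue. The part of cell-type make-up in the differences of the acid-base genes was not tested.

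**Figure D5:**
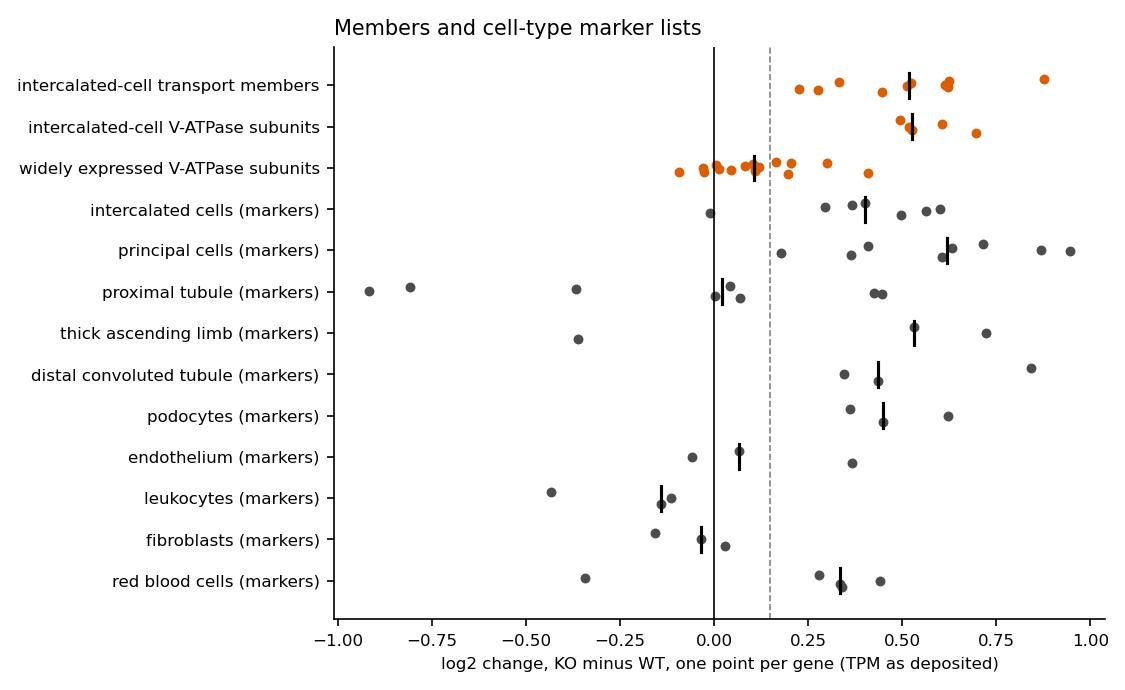
Log2 change, KO minus WT, of each tested gene in 3 member groups (orange) and 10 marker lists (grey), on TPM as deposited; black bars are medians and the dashed line is the median of all genes tested, 0.15. Intercalated-cell subunits (median 0.53) and principal-cell markers (0.62) lie to the right of the widely expressed subunits (0.11).

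Genes that work beside the members were counted from lists of their own, to be read against the 50.9% of all genes tested that were higher, the 10.0% that were lower and the median log2 change of 0.15. Among 11 genes for V-ATPase assembly and its accessory proteins 6 were higher and 0 lower with a median log2 change of 0.22. They included Rogdi (0.41, adjusted p 1.48e-06), a partner of the complex that rejoins the sectors, and Tldc2 (0.71, adjusted p 0.000179), a TLDc-domain protein, both also called after scaling. Among 14 other Slc4, Slc26 and carbonic anhydrase genes 12 were tested, 8 were higher and 1 lower, with a median of 0.39. Car5b, the mitochondrial carbonic anhydrase, went from 16.8 ± 2.58 TPM in WT to 56.1 ± 11.1 TPM in KO (SD, n = 12), 1.71 higher on the log2 scale (SE 0.14, adjusted p 2.3e-07). Car3, a cytosolic form, was lower by -0.64 (adjusted p 0.0435). With median-of-ratios scaling the assembly list had 4 higher and 3 lower, and the exchanger and anhydrase list 5 higher and 2 lower. Of all genes tested 21.5% were higher and 22.6% lower with that scaling. Among 17 genes for proton exchange and ammonia production 16 were tested, 7 were higher and 4 lower, or 4 and 5 with that scaling. The glutamine transporter Slc38a3 (0.99, adjusted p 2.08e-05) and glutamate dehydrogenase Glud1 (0.67, adjusted p 4.66e-07), which feed ammonia production in the proximal tubule, were higher, and so was endothelin Edn1 (0.70, adjusted p 0.000139). Lower were the potassium channel Kcnk5 (-0.87, adjusted p 3.9e-05) and Slc9a3r1 (-0.28, adjusted p 0.000401), the scaffold of the sodium-proton exchanger Slc9a3, which itself did not pass (0.14, adjusted p 0.26).

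Daily rhythms were tested with a 24-hour cosine in each genotype. In WT 11 of the 39 members passed, beside 13.7% of all genes tested, and in KO 1 of 39, beside 3.64%. The WT rhythms were small, with fitted peak-to-trough differences of 0.23 to 0.91 on the log2 scale. The largest was that of Slc4a1, whose WT libraries were at 13.8 and 22.3 TPM at ZT4 and at 8.08 and 8.14 TPM at ZT12, while KO at ZT12 had 20.7 and 22.9 TPM. Its fitted peak was at 1.42 h with a peak-to-trough difference of 0.91 (SE 0.21, adjusted p 0.0185). Car2 and Rhbg had the same fitted peak time, 22.5 h, and differences of 0.62 each (adjusted p 0.0157 and 0.00668). Car2 was at 225 and 198 TPM in WT at ZT0 and at 162 and 121 TPM at ZT12. Rhbg was at 14.7 and 17.6 TPM at ZT20 and at 12.1 and 8.46 TPM at ZT12. In all 3 genes the lowest WT group mean was that of ZT12.

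Widely expressed subunits made up 7 of the 11: Atp6v0a2 (0.35), Atp6v0d1 (0.26), Atp6v0e (0.26), Atp6v1d (0.28), Atp6v1g1 (0.24), Atp6v1h (0.23) and Atp6ap1 (0.28), with fitted peaks between 17.8 h and 23.5 h. With median-of-ratios scaling 5 of the 16 widely expressed subunits were rhythmic in WT, and after rescaling without the 20 most abundant genes 1 was. In the latter fit Atp6v0a2, Atp6v0d1, Atp6v0e, Atp6v1g1, Atp6v1h and Atp6ap1 had adjusted p-values of 0.0538 to 0.145. The shares of all genes rhythmic in WT under these scalings are not given here, so the counts have no background beside them. Leaving out single libraries showed how close these calls were to the threshold. Atp6v0d1, Atp6v1g3 and Rhbg passed in all 24 such fits on TPM as deposited, whereas Atp6ap1 passed in 5, Atp6v1d in 9, Atp6v1g1 in 17, Atp6v1h in 19, Atp6v0a2 in 21 and Atp6v0e in 23. Slc4a1 lost its call without either WT library of ZT12 (adjusted p 0.0627 and 0.061), and Car2 lost its call without WT ZT0 replicate A or WT ZT12 replicate B (adjusted p 0.0561 and 0.0588). The count of 11 went down to 4 without WT ZT12 replicate B and to 5 without WT ZT8 replicate A, and up to 13 with the library labelled KO ZT4 replicate A set aside. It was also 6 without WT ZT0 replicate A and 7 without WT ZT0 replicate B or WT ZT8 replicate B. The shares of all genes rhythmic in WT in the fits that left out a library are not given here. These counts thus have no background either.

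In KO the member that passed was Slc26a4, with a peak-to-trough difference of 0.56, a peak at 12.2 h and an adjusted p of 0.0218. Its KO libraries were at 31.4 and 31.6 TPM at ZT12 and at 19.9 and 23.9 TPM at ZT20. The call was lost without KO ZT12 replicate A (adjusted p 0.0543) or replicate B (adjusted p 0.064). Without the latter 0 members passed in KO, and without KO ZT0 replicate A 4 passed. The shares of all genes rhythmic in KO in those fits are not given here. For Slc26a4 the difference from the WT rhythm did not pass (adjusted p 0.262). A difference in rhythm between genotypes passed for 1 member, Atp6v1g3, beside 0.629% of all genes tested. Its WT libraries were at 18.2 and 18.6 TPM at ZT0 and 13.5 and 11.7 TPM at ZT12, and its KO libraries at 23.8 and 20.8 TPM at ZT0 and 26.5 and 25.0 TPM at ZT12. The fitted WT difference was 0.54 with a peak at 22.1 h (adjusted p 0.00628), and the KO fit had 0.33 with a peak at 13.8 h, which did not pass by itself (adjusted p 0.159). The test of the difference gave an adjusted p of 0.0437. That call was lost in 19 of the 24 fits that left out a library, with a replicate block (adjusted p 0.0515) and under 3 other settings (adjusted p 0.0592 to 0.0961). For Rhbg, Car2 and Slc4a1 it did not pass (adjusted p 0.0763, 0.343 and 0.263), so a rhythm called in WT and not in KO is not shown to differ between the genotypes for those genes.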

How the data were processed

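Polyadenylated RNA of 24 kidney libraries was analysed, and the 20 4C-seq libraries of the series were not used here. The authors deposited TPM per transcript, made with kallisto 0.42.4 per the submitters' processing notes, which also name the mouse builds mm10 and GRCm38. The index and the library strand are not given in the sources used here. TPM keeps no depth, so no counting interval can be given. The deposited TPM were summed per gene by Ensembl transcript ID through GENCODE M21, which matched 86119 of 88198 transcripts; the others held 1.35 to 2.24% of each library. Tests used limma 3.58.1 in R 4.3.3 on log2(TPM + 0.1), with trended, robust moderation, over the 12874 genes averaging 1 TPM or more; a log2 change on this scale understates that of low genes. The steps were tested on simulated data.

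The members and lists were chosen with earlier results of these data known. Named with values were called members with a log2 change of at least 0.3 in size, members past a rhythm test, the 5 paralog pairs and members with textbook roles; beyond that rule, the remaining members were named to account for all 44, and genes of the other lists were named after their values were seen. Alternatives were other pseudocounts (1 and 0.01), other filters (none, or an average of 5 TPM), median-of-ratios scaling, rescaling without the 20 most abundant genes, a replicate block, moderation without trend, no time term, each genotype fitted alone, time as a 6-level factor, and each library left out. The level of 1 red-cell marker is not reported here.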

Additional observations from a re-analysis of the deposited data

Results flagged for a closer look

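The daily pattern of Atp6v1g3 differed between WT and KO in a test of the difference itself, with an adjusted p of 0.0437 (limma, over all genes tested). Its KO level exceeded WT at 6 of 6 times, as was so for 23 of the 30 members called higher. The fitted Atp6v1g3 peaks were at 22.1 h in WT and 13.8 h in KO. The call held in 5 of the 24 fits that left out a library, those without WT ZT16 replicate B, WT ZT20 replicate A, KO ZT0 replicate A, KO ZT4 replicate A or KO ZT16 replicate A. It was lost in the other 19, where the adjusted p reached 0.105, and it was lost under 4 of 9 other settings.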

How the results depend on the processing

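All 5 paralog ratios and all 5 intercalated-cell subunits kept their direction and call under every alternative run for them, and 8 to 10 intercalated-cell transport members were called higher. With median-of-ratios scaling 19 members were higher and 8 lower, 2 widely expressed subunits were higher and 7 lower, and 3 members were rhythmic in KO. Of all genes tested 21.5% were higher and 22.6% lower in that fit. Rescaling without the 20 most abundant genes gave 4 members lower, 5 widely expressed subunits higher and 3 lower, 5 members rhythmic in WT and 3 in KO. WT libraries alone gave 18 rhythmic members and KO libraries alone gave 0. The shares of all genes rhythmic in these alternative fits are not given here. A filter at a mean of 5 TPM gave 2 rhythmic members in KO. The rhythm difference was called in 0 members with no filter, with moderation without trend and robust, and with time as a 6-level factor. Across fits that left out a library, members lower ranged from 1 to 2, widely expressed subunits lower from 0 to 1, members rhythmic in WT from 4 to 13, in KO from 0 to 4, and with a rhythm difference from 0 to 2.

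The letters A and B were not taken to pair the samples. Of 66 pairs of groups 21 had a correlation of deviations over 0.1, with a range of -0.323 to 0.338 and a median of 0.022. Pairing itself was not tested, and a small median does not show that no groups were paired. The replicate block gave 7873 genes called against 7844 without it, 2 members rhythmic in KO and 0 with a rhythm difference, and changed none of the other counts of members by over 1.5 times.

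Reversals concerned widely expressed subunits and the pseudogene. Median-of-ratios scaling gave Atp6v0b -0.0444, Atp6v0c -0.108, Atp6v0d1 -0.138, Atp6v0e -0.0441, Atp6v1b2 -0.0316, Atp6v1c1 -0.0688, Atp6v1d -0.148 and Atp6v1e1 -0.0481. Rescaling without the 20 most abundant genes gave Atp6v0c -0.0425, Atp6v0d1 -0.0725, Atp6v1c1 -0.00362 and Atp6v1d -0.0829. Leaving out a library gave Atp6v1d between -0.0157 and 0.0241, Atp6v0d1 between -0.000501 and 0.0255, and the pseudogene Atp6v0c-ps2 between -0.171 and 0.392. Without a time term Atp6v1c1 lost its call (adjusted p 0.0741). Atp6v0a2 was called lower without WT ZT4 replicate B, WT ZT12 replicate B, KO ZT4 replicate A or KO ZT12 replicate A (adjusted p 0.0244, 0.033, 0.0401 and 0.00792). Of 1284 gene values under alternatives 1237 kept direction and call. The cause of each change was not tested.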

Other observations

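Lysosomal genes, whose compartment the widely expressed pump acidifies, were counted as a further list. Of 15 tested, 7 were higher in KO and 1 lower on TPM as deposited, with a median log2 change of 0.10, beside 50.9% higher, 10.0% lower and a median of 0.15 among all genes tested. With median-of-ratios scaling 4 were higher and 4 lower, with a median of -0.06, beside 21.5% higher and 22.6% lower among all genes. The transcription factor Mitf went from 2.88 ± 0.15 to 4.63 ± 1.001 TPM (SD, n = 12; log2 change 0.64, adjusted p 6.02e-06), the beta-hexosaminidase subunit Hexa from 22.4 ± 2.3 to 33.5 ± 4.2 TPM (0.57, adjusted p 4.11e-06) and the membrane protein Lamp2 from 287.7 ± 15.2 to 373.7 ± 28.6 TPM (0.38, adjusted p 1.26e-06). Psap, the saposin precursor, was lower, from 625.2 ± 31.2 to 506.8 ± 64.4 TPM (-0.31, adjusted p 5.67e-05). These 4 genes were chosen after their values were seen, and each kept its direction and call after scaling.

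Slc9a3r1 passed the test of a rhythm difference (adjusted p 0.0152), as did no other gene of the proton exchange and ammonia list on TPM as deposited.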
